A study of Mus musculus with 8 samples.

Results

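The genes of glycolysis, glucose and lactate transport, pyruvate fate and the pentose phosphate pathway were examined in RGd2 cells, mouse embryonic stem cells (ESCs) of the 129 strain with a destabilised GFP reporter at Rex1 (Zfp42). The 35 genes were taken by name from the 38991 genes with values, and all 35 were found. They comprise 4 transporters, 10 genes of upper glycolysis, 7 of lower glycolysis, 7 that act on pyruvate and lactate, and 7 of the pentose phosphate pathway. RNA was sequenced from 8 cultures, with 2 cultures in each of 4 media. All cultures were grown on gelatin in serum-free N2B27 medium, were expanded for 6 passages in 2i and then for 5 passages in their final medium, and were collected at passage 11. The 2i+LIF cultures received the cytokine LIF, the GSK3 inhibitor CH (CHIR99021) at 3 µM and the MEK inhibitor PD (PD0325901) at 1 µM. The 2i cultures received CH and PD without LIF, the LIF+PD cultures received LIF and PD without CH, and the CH+LIF cultures received CH and LIF without PD. The line was the same throughout, and the labels do not say whether the 2 replicates of a medium were grown from separate thaws or on separate days. The p-values below therefore measure only the spread between these cultures, which may be technical.

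Glycolysis splits glucose into pyruvate in the cytosol and yields ATP without oxygen. Its upper steps consume ATP to make and cleave a bisphosphorylated sugar, and its lower steps recover ATP and pass electrons to NAD. Pyruvate is then reduced to lactate and exported, or enters mitochondria through the pyruvate dehydrogenase complex, which pyruvate dehydrogenase kinases switch off. The pentose phosphate pathway branches from glucose 6-phosphate and supplies NADPH and ribose for nucleotides. Pluripotent cells are known for high glycolytic activity, and many of these enzymes exist as isozymes encoded by separate genes.

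Promoters of 4 of the genes are shown to give the sequence context of the changes described below. They were chosen after the values had been seen: Pdk1 for the largest changes between media, Hk2 for its fall without LIF, and Ldha and Pgk1 for large differences between replicates. Each window runs from 250 bases before to 50 after a RefSeq start on GRCm38.p6 and is written from 5′ to 3′ on the strand of the gene. Capitals mark the letters ACGTG and GCGTG, the cores of the hypoxia response element, on either strand, so that CACGT and CACGC also count. The E-box CACGTG holds ACGTG on both strands, so each E-box counts as 2 ACGTG matches. The windows lie at chr2:71872974-71873273 (Pdk1, plus strand), chr6:82774405-82774704 (Hk2, minus strand), chr7:46845554-46845853 (Ldha, plus strand) and chrX:106186850-106187149 (Pgk1, plus strand).
Pdk1: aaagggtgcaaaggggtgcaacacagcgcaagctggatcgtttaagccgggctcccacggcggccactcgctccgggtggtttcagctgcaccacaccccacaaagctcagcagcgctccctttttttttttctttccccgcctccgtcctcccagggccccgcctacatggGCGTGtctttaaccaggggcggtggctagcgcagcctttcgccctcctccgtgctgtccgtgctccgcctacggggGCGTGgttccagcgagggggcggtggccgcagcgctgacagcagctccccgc
Hk2: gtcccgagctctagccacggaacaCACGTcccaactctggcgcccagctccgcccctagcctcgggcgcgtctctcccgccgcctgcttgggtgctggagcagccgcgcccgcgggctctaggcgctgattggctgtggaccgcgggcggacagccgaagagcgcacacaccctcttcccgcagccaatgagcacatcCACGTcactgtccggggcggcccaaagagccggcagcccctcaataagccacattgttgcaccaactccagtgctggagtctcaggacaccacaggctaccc
Ldha: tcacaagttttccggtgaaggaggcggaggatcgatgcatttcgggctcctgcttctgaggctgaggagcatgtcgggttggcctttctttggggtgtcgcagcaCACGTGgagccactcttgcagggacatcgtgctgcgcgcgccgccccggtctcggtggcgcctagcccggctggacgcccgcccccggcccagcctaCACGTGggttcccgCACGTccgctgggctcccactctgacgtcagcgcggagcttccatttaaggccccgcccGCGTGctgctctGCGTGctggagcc
Pgk1: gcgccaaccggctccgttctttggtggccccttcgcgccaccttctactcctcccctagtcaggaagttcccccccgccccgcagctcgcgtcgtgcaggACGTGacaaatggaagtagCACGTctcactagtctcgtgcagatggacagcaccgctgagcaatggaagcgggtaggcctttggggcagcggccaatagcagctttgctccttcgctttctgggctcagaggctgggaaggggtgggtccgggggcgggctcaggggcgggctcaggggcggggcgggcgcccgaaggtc

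The Ldha window held 5 ACGTG matches over both strands, among them both strands of 2 E-boxes, and 2 GCGTG matches. Pdk1 had 2 GCGTG matches and no ACGTG, while Hk2 and Pgk1 each had 2 ACGTG matches and no GCGTG. Of the 35 genes, 34 had a window in the reference table. ACGTG was present in 15 of the 34 (44.1%), against 19.6% of all 32851 windows and 26.3% of the 9038 windows that belong to genes tested here. GCGTG was present in 22 (64.7%), against 32.4% of all windows and 53.1% of those of tested genes. CACGTG was present in 5 (14.7%), against 7.15% and 10.6%. The comparison with tested genes was added after the first one had been seen, and it brought the background nearer to the pathway genes for each motif. A match is a run of letters and not evidence of a bound factor.

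All 35 genes reached 1 FPKM in all 8 cultures. FPKM are fragments divided by transcript length and library size, so levels can be compared between genes. Together the 35 genes held between 9658 and 15421 FPKM, which was 1.33% to 1.79% of the sum of all genes in a culture. Gapdh (2158 to 3037 FPKM), Eno1 (2044 to 3674), Pkm (1118 to 1844) and Aldoa (833 to 1699) had the highest levels, and Eno2 (1.06 to 2.42) and Pfkfb3 (2.40 to 10.46) the lowest.

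The libraries differed in depth and scale. Relative depth, estimated from low FPKM values, ran from 0.499 in replicate 1 of 2i to 1.18 in replicate 2 of CH+LIF, with replicate 1 of 2i+LIF set to 1. The number of reads is not known from FPKM. The sum of FPKM ran from 715575 to 875458 and was higher in replicate 1 of every medium. The 6 pluripotency markers checked, Pou5f1 and Nanog among them, summed to between 4007 and 5658 FPKM. Of 7 fibroblast markers, Dcn, Col3a1 and Lum were at 0 in all cultures. The list summed to at most 2.02 FPKM except in replicate 2 of CH+LIF (14.8). In that culture Postn alone was at 14.1 FPKM, and Col1a1 was at 0.08. Marker sums for mesoderm were highest in CH+LIF (47.7 and 28.6 FPKM, against 3.41 to 21.9 elsewhere), and those for neural cells in LIF+PD (31.2 and 31.1, against 4.08 to 13.1). Not all markers followed their sum. T and Eomes made up most of the mesoderm sum in CH+LIF, where Kdr was below its 2i+LIF and LIF+PD levels. The neural marker Sox1 was at 0.75 and 1.34 FPKM in LIF+PD and 1.04 and 1.83 in CH+LIF. Trophectoderm markers summed to between 26.8 and 73.1 FPKM and primitive endoderm markers to between 1.51 and 3.34. Of the trophectoderm markers, Cdx2 was lower and Gata3 higher in LIF+PD than in 2i+LIF. In bulk RNA, a change in the proportion of cells of a type cannot be told apart from a change in RNA per cell, and the part of these markers in the results was not tested.

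**Figure D1:**
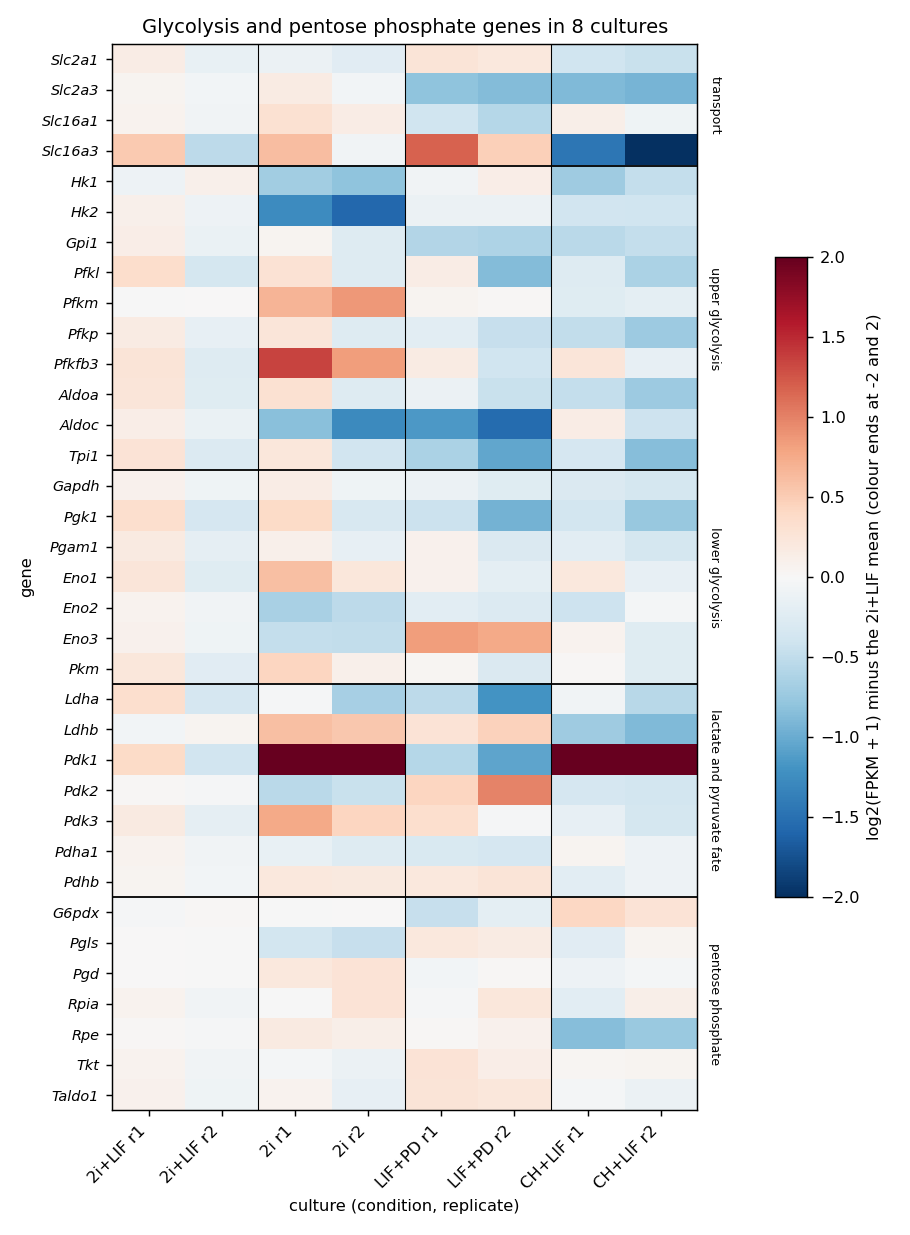
Level of each of the 35 genes (rows, grouped by role) in the 8 cultures (columns), as log2(FPKM + 1) minus the mean of the 2 cultures in 2i+LIF; the colour scale ends at -2 and 2. Pdk1 is far above its 2i+LIF level in 2i and CH+LIF, Hk2 is low in 2i, Slc16a3 is low in CH+LIF, and many rows are redder in replicate 1 than in replicate 2 of the same medium.

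Each medium that lacked 1 factor was compared with 2i+LIF, and the 3 media were compared with each other, to ask how the pathway's transcripts depend on LIF, GSK3 inhibition and MEK inhibition. Differences are given as log2 differences of FPKM + 1 with the standard error (SE) of the fit, which understate the change of low genes. A gene passed when its p-value in limma, adjusted by Benjamini-Hochberg over all 12927 genes tested, was below 0.05. All adjusted p-values below are from that test. All 35 genes were among those tested.

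Without LIF (2i against 2i+LIF), 8 of the 35 genes passed, 4 higher and 4 lower, while 18.6% of all genes tested passed, 9.77% higher and 8.86% lower. Without CH (LIF+PD against 2i+LIF), 8 passed, 3 higher and 5 lower, against 25.2% of all genes, 14.8% higher and 10.4% lower. Without PD (CH+LIF against 2i+LIF), 8 passed, 1 higher and 7 lower, against 25.4% of all genes, 12.2% higher and 13.3% lower. In all, 17 of the 35 (48.6%) passed in at least 1 of the 3 comparisons, against 45.6% of all genes tested. The share of the pathway that changed was thus near the background, and what follows describes which steps changed. The median log2 difference over the 35 genes was 0.01 without LIF, -0.12 without CH and -0.25 without PD, beside 0.04, 0.03 and 0.01 over all genes tested. The balance of directions depended on the scaling: with each culture brought to the same sum, the higher and lower calls were 5 and 3 without LIF, 7 and 4 without CH, and 2 and 4 without PD, and with size factors 4 and 5, 2 and 6, and 1 and 8. The 3 comparisons share the 2i+LIF cultures. Of the 24 calls, 11 held under all 19 alternative settings tried, which are meant below by all alternatives.

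The counts depended on single cultures. Without LIF, 4 genes passed when replicate 1 of 2i+LIF was left out, and 5 when replicate 2 of 2i+LIF or of 2i was. Without CH, 3 passed when replicate 1 of 2i+LIF was left out, 4 without replicate 2 of LIF+PD, and 5 without replicate 2 of 2i+LIF or replicate 1 of LIF+PD. Without PD, 5 passed when replicate 1 of 2i+LIF or either culture of CH+LIF was left out, including the CH+LIF culture with the higher fibroblast sum. A medium with 1 culture left was assumed to vary like the others.

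Among the 4 transporters, 2 were lower without CH and 3 without PD. Slc2a3 (GLUT3, chromosome 6, 122727809 to 122801640), a high-affinity glucose importer, had the highest level of the 4. Its FPKM were 408 and 378 in 2i+LIF and 439.8 and 380.0 in 2i, but 224 and 214 in LIF+PD and 214 and 206 in CH+LIF. The cultures that lacked either inhibitor all lay below every culture that had both. Slc2a3 fell by 0.84 on the log2 scale without CH (SE 0.0942, adjusted p = 0.00117) and by 0.90 without PD (SE 0.0942, adjusted p = 0.0014), and its difference without LIF was 0.06 (SE 0.0942, adjusted p = 0.708). The calls without CH and without PD held under all alternatives. Slc2a1 (GLUT1), the widely expressed glucose importer, was at 155 and 125 FPKM in 2i+LIF, 129 and 119.5 in 2i, 167 and 162 in LIF+PD, and 105.2 and 102 in CH+LIF. With each culture brought to the same sum, it passed as higher without CH (adjusted p = 0.0248). It was lowest in CH+LIF, where it fell by 0.43 (SE 0.109, adjusted p = 0.0292). The call was lost under rescaling to the same sum, without a filter, without the mean-variance trend and with only the 2 media compared. That call was lost without replicate 1 of 2i+LIF (adjusted p = 0.124) and without either CH+LIF replicate (0.1 and 0.108).

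The lactate transporters moved apart. Slc16a3 (MCT4), which exports lactate from glycolytic cells, was at 36.9 and 17.4 FPKM in 2i+LIF, 39.4 and 24.2 in 2i, 58.5 and 35.5 in LIF+PD, and 8.71 and 4.80 in CH+LIF. Both CH+LIF cultures lay below all others, and in every medium replicate 1 was well above replicate 2. With the replicate number as a block, a rise of 0.82 without CH passed (adjusted p = 0.00495). Slc16a3 fell by 1.81 without PD (SE 0.434, adjusted p = 0.0235), the largest fall of the 35 genes in the 3 comparisons with 2i+LIF. The call was lost without replicate 1 of 2i+LIF (adjusted p = 0.111) or replicate 2 of CH+LIF (0.109). Slc16a1 (MCT1), a transporter for lactate and pyruvate, was at 28.8 and 26.1 FPKM in 2i+LIF, 34.0 and 30.6 in 2i, 20.6 and 18.0 in LIF+PD, and 29.8 and 25.6 in CH+LIF. It was lowest in LIF+PD, with a fall of 0.49 without CH (SE 0.118, adjusted p = 0.0243). This call was lost without either 2i+LIF replicate (adjusted p = 0.127 and 0.0609) or replicate 2 of LIF+PD (0.123).

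The hexokinases, which trap glucose in the cell by phosphorylation, were both lower without LIF. Hk2 (chromosome 6, 82725025 to 82774454) was at 84.0 and 72.1 FPKM in 2i+LIF, 71.6 and 71.5 in LIF+PD, 59.2 and 59.0 in CH+LIF, and 32.1 and 25.5 in 2i. The 2i cultures were the lowest by a wide margin and did not overlap with any other. Hk2 fell by 1.41 without LIF (SE 0.123, adjusted p = 0.000594), and was higher than in 2i by 1.29 in LIF+PD (SE 0.123, adjusted p = 0.000537) and by 1.02 in CH+LIF (SE 0.123, adjusted p = 0.0019). Without PD its difference was -0.39 (SE 0.123, adjusted p = 0.0561). That difference passed under 7 of the 19 alternatives, among them size factors, a filter at 5 FPKM and the replicate number as a block. Hk1 (chromosome 10, 62268855 to 62379908) was at 55.6 and 64.8 FPKM in 2i+LIF, 57.4 and 65.8 in LIF+PD, 36.6 and 34.0 in 2i, and 36.3 and 42.8 in CH+LIF. It was low in 2i and in CH+LIF, and those cultures overlapped with each other. Hk1 fell by 0.75 without LIF (SE 0.124, adjusted p = 0.00717) and by 0.60 without PD (SE 0.124, adjusted p = 0.0145). The Hk1 and Hk2 calls without LIF held under all alternatives, whereas the Hk1 call without PD was lost without replicate 2 of 2i+LIF (adjusted p = 0.0812), without replicate 1 of CH+LIF (0.083), and under rescaling to the same sum (0.0864). In that comparison the rescaling moved the median of all genes by 0.17.

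Gpi1, which converts glucose 6-phosphate to fructose 6-phosphate, was at 673 and 563 FPKM in 2i+LIF, 637 and 515 in 2i, 412 and 403 in LIF+PD, and 424 and 444 in CH+LIF. As for Slc2a3, the media that lacked either inhibitor held the lower values. Gpi1 fell by 0.59 without CH (SE 0.128, adjusted p = 0.0159) and by 0.50 without PD (SE 0.128, adjusted p = 0.0285). The call without PD was lost under rescaling to the same sum and without a filter on low values. Neither call survived the removal of replicate 1 of 2i+LIF (adjusted p = 0.0873 and 0.141). The first was also lost without either LIF+PD replicate (0.0705 and 0.0785) and the second without either CH+LIF replicate (0.127 and 0.0802).

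Of the phosphofructokinases, which commit sugar to glycolysis, Pfkm (the muscle-type subunit, chromosome 15, 98092589 to 98132447) rose without LIF. It was at 21.3 and 21.7 FPKM in 2i+LIF, 35.2 and 40.3 in 2i, 22.3 and 21.9 in LIF+PD, and 18.1 and 18.7 in CH+LIF. Both 2i cultures stood above all others. The rise without LIF was 0.78 (SE 0.0927, adjusted p = 0.00204) and held under all alternatives. Pfkp, the platelet-type subunit and the most abundant of the 3, ran from 100.4 FPKM in CH+LIF to 198 in 2i, with a difference of -0.61 without PD (SE 0.193, adjusted p = 0.0575). That difference passed under 5 of the 19 alternatives. With the replicate number as a block, Pfkp passed as lower both without CH and without PD. Pfkl, the liver-type subunit, ran from 40.6 to 94.9 FPKM with replicates far apart (SE 0.375), and its adjusted p was 0.423 or more in these 3 comparisons. Pfkfb3, which makes the activator fructose 2,6-bisphosphate, was at 4.39 and 2.77 FPKM in 2i+LIF, 10.46 and 7.03 in 2i, 4.03 and 2.40 in LIF+PD, and 4.35 and 3.03 in CH+LIF. It was highest in 2i and rose by 1.09 without LIF (SE 0.29, adjusted p = 0.0405). The Pfkfb3 call was lost without any 1 culture of 2i+LIF, 2i or CH+LIF, with adjusted p-values from 0.0505 to 0.187.

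The aldolases cleave the bisphosphorylated sugar. Aldoc (chromosome 11, 78322968 to 78327781), the minor isozyme, was at 48.1 and 40.3 FPKM in 2i+LIF, 24.1 and 17.7 in 2i, 19.3 and 14.5 in LIF+PD, and 48.8 and 32.8 in CH+LIF. The 2i and LIF+PD cultures, which overlapped with each other, all lay below the other 4. Aldoc fell by 1.05 without LIF (SE 0.235, adjusted p = 0.0223) and by 1.35 without CH (SE 0.235, adjusted p = 0.00701). The second call held under all alternatives. The first was lost without either 2i+LIF replicate (adjusted p = 0.115 and 0.066) or replicate 2 of 2i (0.0955). Aldoa, the major isozyme, had log2 differences between -0.60 and 0.02 in the same 3 comparisons, with adjusted p from 0.113 to 0.96. With the replicate number as a block, Aldoa passed as lower without PD. Tpi1, which interconverts the triose phosphates, had differences of -0.83 without CH (SE 0.286, adjusted p = 0.0734) and -0.59 without PD (SE 0.286, adjusted p = 0.174). Both passed with the replicate number as a block, as given in the closing section.

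**Figure D2:**
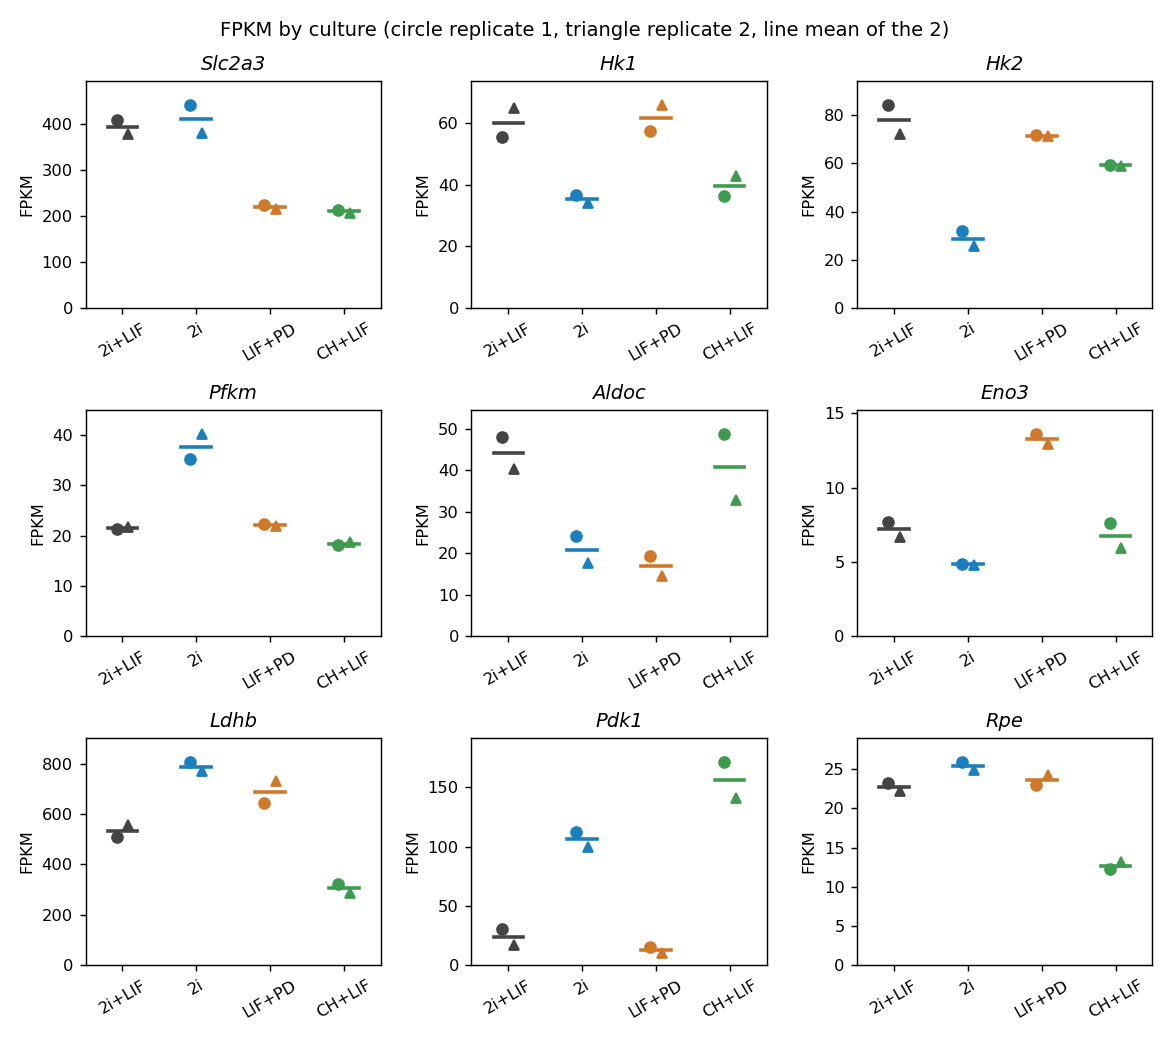
FPKM in each culture for the 9 genes with at least 1 call against 2i+LIF that held under all alternatives (a choice made after the values were seen). Circles are replicate 1, triangles replicate 2 and lines the mean of the 2, and each vertical axis starts at 0. Other genes had such calls only between the media that lacked 1 factor. Slc2a3 is lower in LIF+PD and CH+LIF, Hk2 is lowest in 2i, Pdk1 is high in 2i and CH+LIF, and Rpe is low only in CH+LIF among these 4 media.

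In lower glycolysis, 1 of the 7 genes passed in a comparison with 2i+LIF, where 45.6% of all genes tested passed in at least 1 of the 3. Eno3 (chromosome 11, 70657202 to 70662513), the enolase typical of muscle, was at 7.71 and 6.69 FPKM in 2i+LIF, 4.89 and 4.82 in 2i, 13.6 and 12.9 in LIF+PD, and 7.61 and 5.94 in CH+LIF. The LIF+PD cultures were the highest and the 2i cultures the lowest. Eno3 rose by 0.80 without CH (SE 0.139, adjusted p = 0.00688), under all alternatives, and its difference without LIF was -0.48 (SE 0.139, adjusted p = 0.0522). That second difference passed when either replicate of CH+LIF was left out (adjusted p = 0.0446 and 0.044).

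The 6 other genes of lower glycolysis passed in none of the 6 comparisons in limma without a term for the replicate number, and 3 of their 36 tests had an unadjusted p below 0.05. With the replicate number as a block, Gapdh, Pgk1, Eno1 and Pkm passed in some comparisons, as given in the closing section. Gapdh, which oxidises glyceraldehyde 3-phosphate, had log2 differences of 0.03 without LIF, -0.18 without CH and -0.32 without PD, with an SE of 0.121. Pkm, which makes pyruvate, had differences of 0.26, -0.13 and -0.11 (SE 0.199). Pgk1, which recovers ATP, was at 297 and 185 FPKM in 2i+LIF, 307 and 188 in 2i, 173.5 and 121 in LIF+PD, and 183 and 139 in CH+LIF. Its replicates lay far apart, so that a difference of -0.69 without CH had an SE of 0.317 (adjusted p = 0.156). Eno1, the main enolase, had differences of 0.41, -0.05 and 0.03 (SE 0.223), and Pgam1, a phosphoglycerate mutase, of -0.03, -0.10 and -0.28 (SE 0.17). Eno2, the neuronal enolase, had an adjusted p of 0.061 without LIF.

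The values of several abundant genes carry a further limit. In all 8 cultures the deposited FPKM lay above its own deposited upper bound for 6 genes, Pfkp, Gapdh, Pgam1, Eno1, Pdhb and Pgls, and for Eno1 and Gapdh near-identical stretches (at least 95% identity over at least 100 bases) were found in 3 and 81 other genes. Of the 81, 77 were pseudogenes. Such stretches were found for 10 of the 35 genes, among them Ldha, Ldhb, Pgk1 and Tpi1, and whether reads that match several copies were left out or shared out affects their levels. Of the 35 genes, 10 overlap another gene that reached 1 FPKM. Among them, Pfkm, Pfkp and G6pdx overlap Senp1, Pitrm1 and Ikbkg, which reached 27.6, 76.9 and 11.9 FPKM. The authors counted reads by strand, but whether the FPKM kept the strands apart is not known here.

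Pyruvate dehydrogenase kinases phosphorylate and inactivate the pyruvate dehydrogenase complex, and Pdk1 among them gave the largest changes of the pathway. Pdk1 (chromosome 2, 71873224 to 71903858) was at 30.2 and 17.2 FPKM in 2i+LIF, 113 and 99.7 in 2i, 171 and 141 in CH+LIF, and 15.1 and 10.4 in LIF+PD. The media without LIF or without PD held the high values, and LIF+PD the lowest. Pdk1 rose by 2.17 without LIF (4.49-fold, SE 0.268, adjusted p = 0.00239) and by 2.71 without PD (6.55-fold, SE 0.268, adjusted p = 0.00116), both under all alternatives. Without CH the difference was -0.81 (SE 0.268, adjusted p = 0.0651). It passed when replicate 2 of 2i+LIF was left out and with the replicate number as a block. The difference between CH+LIF and LIF+PD was 3.53 (11.5-fold, SE 0.268, adjusted p = 0.0002).

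The 2 other kinases changed less in each comparison with 2i+LIF. Pdk2 was at 5.63 and 5.42 FPKM in 2i+LIF, 3.503 and 3.77 in 2i, 7.76 and 11.95 in LIF+PD, and 4.15 and 4.05 in CH+LIF. It was highest in LIF+PD, where Pdk1 was lowest. Pdk2 rose by 0.71 without CH (SE 0.186, adjusted p = 0.0318), a call lost without any 1 culture of 2i+LIF or CH+LIF or without replicate 2 of LIF+PD (adjusted p from 0.0511 to 0.123). Its difference without LIF was -0.49 (SE 0.186, adjusted p = 0.114), which passed without either LIF+PD replicate (0.0432 and 0.0451). Pdk3 was highest in 2i, at 31.1 and 24.5 FPKM against 13.8 to 23.0 elsewhere, with a difference of 0.60 without LIF (SE 0.187, adjusted p = 0.068). That difference passed with the replicate number as a block (adjusted p = 0.00771) and under rescaling to the same sum (0.0274). The subunits of the dehydrogenase itself varied less: Pdha1 ran from 112 to 148 FPKM and fell by 0.32 without CH (SE 0.0899, adjusted p = 0.0411), a call lost without any 1 culture of 2i+LIF or LIF+PD (adjusted p from 0.0676 to 0.194). The Pdha1 call was also lost under rescaling to the same sum. Pdhb ran from 72.2 to 101 FPKM and passed in no comparison with 2i+LIF. With each culture brought to the same sum, Pdhb passed as higher without CH (adjusted p = 0.0303).

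Lactate dehydrogenase interconverts pyruvate and lactate. Ldhb (chromosome 6, 142490249 to 142507957), the heart-type subunit, was at 508 and 554 FPKM in 2i+LIF, 805 and 769.5 in 2i, 642 and 729 in LIF+PD, and 323 and 287 in CH+LIF. The 4 media did not overlap, with 2i highest and CH+LIF lowest. Ldhb fell by 0.80 without PD (SE 0.104, adjusted p = 0.00278), under all alternatives, and rose by 0.57 without LIF (SE 0.104, adjusted p = 0.0106) and by 0.37 without CH (SE 0.104, adjusted p = 0.0406). The call without LIF was lost without replicate 1 of 2i+LIF (adjusted p = 0.0662). The call without CH was lost without any 1 culture of 2i+LIF, 2i or LIF+PD (adjusted p from 0.0511 to 0.202) and with size factors (0.0634). Ldha, the muscle-type subunit, was at 856 and 534 FPKM in 2i+LIF, 667 and 425 in 2i, 468 and 293 in LIF+PD, and 644 and 459 in CH+LIF. Replicate 1 was far above replicate 2 in each medium, and the 3 differences with 2i+LIF, -0.34, -0.86 and -0.31 (SE 0.34), had adjusted p of 0.523, 0.106 and 0.537. All 3 passed with the replicate number as a block, as given in the closing section.

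In the pentose phosphate pathway, 2 of the 7 genes, Rpe and Pgls, passed in a comparison with 2i+LIF. Tkt and Taldo1, the transketolase and transaldolase that rearrange sugar phosphates, ran from 185 to 243 and from 174 to 236 FPKM, and Rpia, the ribose 5-phosphate isomerase, from 7.59 to 11.1. None of the 3 passed in a comparison with 2i+LIF, where their adjusted p was 0.136 or more. With each culture brought to the same sum, Tkt and Taldo1 passed as higher without CH (adjusted p = 0.0228 and 0.0105). Rpe (chromosome 1, 66700831 to 66719805), the ribulose 5-phosphate epimerase, was at 23.2 and 22.3 FPKM in 2i+LIF, 25.9 and 24.9 in 2i, 23.0 and 24.3 in LIF+PD, and 12.2 and 13.1 in CH+LIF. The CH+LIF cultures were far below the other 6, which lay close together. Rpe fell by 0.80 without PD (1.74-fold lower, SE 0.0876, adjusted p = 0.00154), under all alternatives. Pgls, the lactonase, was at 54.1 and 54.0 FPKM in 2i+LIF, 41.8 and 39.0 in 2i, 62.4 and 60.8 in LIF+PD, and 46.0 and 56.4 in CH+LIF. It was lowest in 2i and fell by 0.41 without LIF (SE 0.106, adjusted p = 0.0369), a call lost without any 1 culture of 2i+LIF, 2i or LIF+PD (adjusted p from 0.0601 to 0.136) and under rescaling to the same sum (0.104).

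The entry enzymes of the pentose phosphate pathway, which make NADPH, passed in no comparison with 2i+LIF. G6pdx, the rate-limiting glucose 6-phosphate dehydrogenase, was at 39.3 and 40.9 FPKM in 2i+LIF, 40.0 and 40.5 in 2i, 28.7 and 34.97 in LIF+PD, and 53.7 and 48.9 in CH+LIF. CH+LIF was highest and LIF+PD lowest, with differences from 2i+LIF of 0.35 (SE 0.108, adjusted p = 0.0556) and -0.33 (SE 0.108, adjusted p = 0.0644). Rescaling to the same sum brought the first below the threshold, and size factors the second. The first passed without either LIF+PD replicate (adjusted p = 0.0371 and 0.0375) and the second without replicate 2 of LIF+PD (0.0387). Pgd, the phosphogluconate dehydrogenase, was highest in 2i (196 and 205 FPKM against 158.5 to 172 elsewhere), with a difference of 0.24 without LIF (SE 0.0718, adjusted p = 0.0575).

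**Figure D3:**
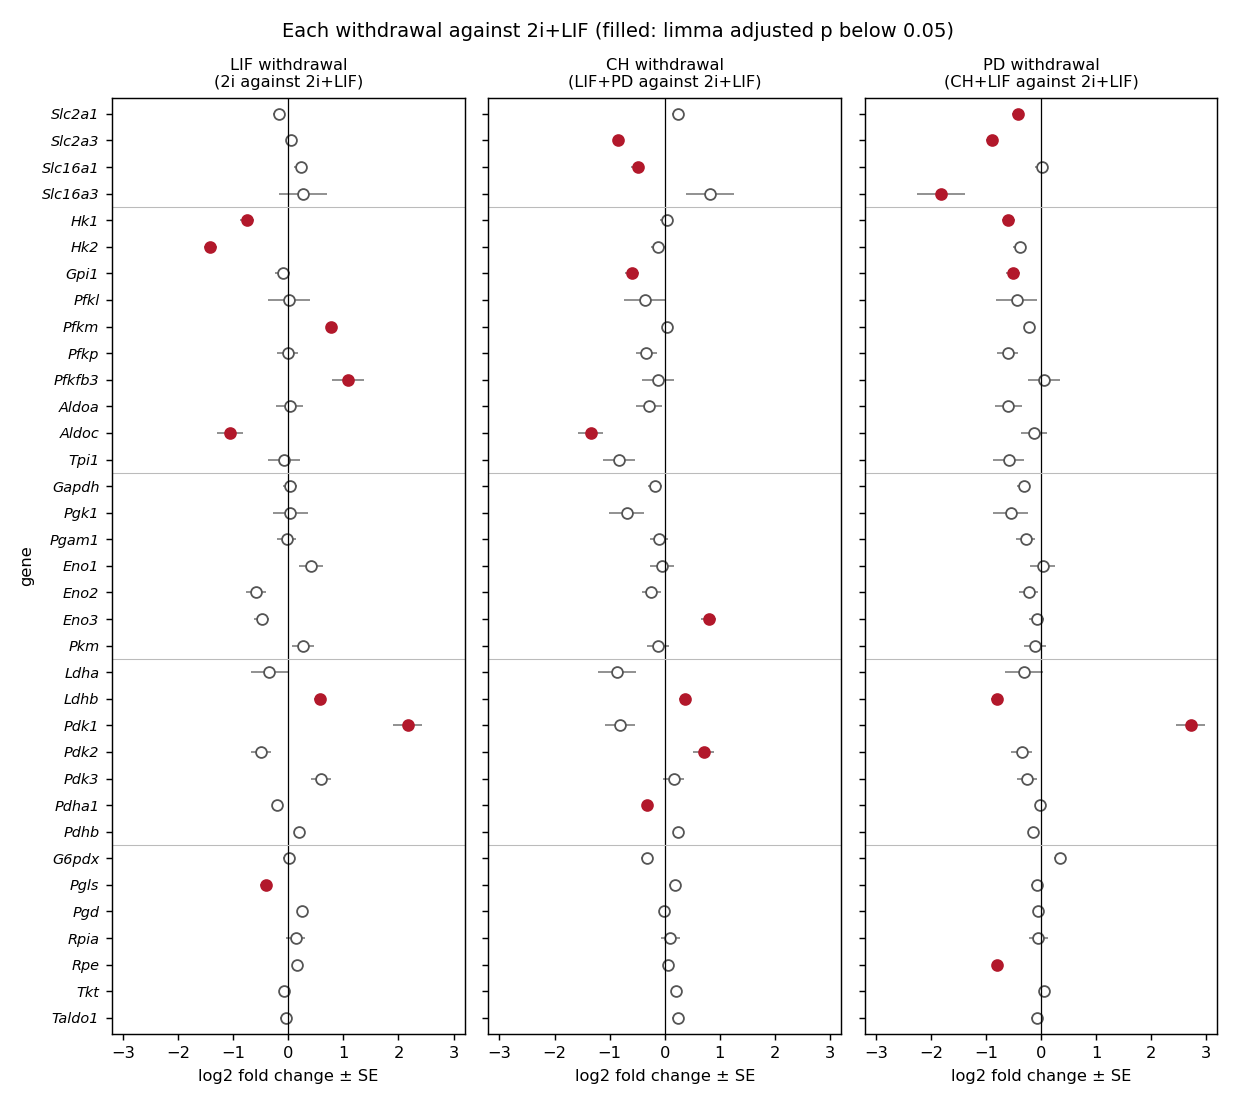
Log2 difference of FPKM + 1 for each of the 35 genes without LIF, without CH and without PD (titled withdrawal), each against 2i+LIF, with bars for the SE of the fit; filled points passed at an adjusted p below 0.05. Pdk1 rises by 2.17 and 2.71 without LIF and without PD, and Slc16a3 has the largest fall, 1.81 on the log2 scale, without PD.

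The media that lacked 1 factor were also compared directly. Between LIF+PD and 2i, 13 of the 35 genes passed, 6 higher and 7 lower in LIF+PD, against 25.1% of all genes tested, 14.0% higher and 11.1% lower. With each culture brought to the same sum, 8 were higher and 6 lower. Eno3, Hk2 and Pdk2 were higher in LIF+PD by 1.28, 1.29 and 1.20, and Pdk1 and Pfkfb3 were lower, with differences of -2.98 and -1.21 (adjusted p at most 0.0219 for the 5). Of these, the Pfkfb3 call was lost without replicate 1 of 2i or replicate 2 of LIF+PD (adjusted p = 0.109 and 0.114). Between CH+LIF and 2i, 11 passed, 2 higher and 9 lower in CH+LIF, against 23.9% of all genes, 10.6% higher and 13.3% lower. The split was 6 higher and 7 lower with each culture brought to the same sum, and 4 and 9 with size factors. Slc16a3, Ldhb, Pfkm and Rpe were lower in CH+LIF, with differences of -2.09, -1.37, -0.99 and -0.95 (adjusted p at most 0.0149), and Hk2 (1.02) and Aldoc (0.92) were the 2 higher genes. The Slc16a3 call was lost without replicate 1 of 2i or replicate 2 of CH+LIF (adjusted p = 0.0751 and 0.0767), and the Aldoc call without replicate 2 of 2i or replicate 1 of CH+LIF (0.119 and 0.144). The count was 6 without replicate 1 of 2i and 7 without either CH+LIF replicate. Between CH+LIF and LIF+PD, 13 passed, 5 higher and 8 lower in CH+LIF, against 30.4% of all genes, 12.6% higher and 17.8% lower. The count was 8 without replicate 2 of LIF+PD. Besides Pdk1, G6pdx was higher in CH+LIF by 0.68 (SE 0.108, adjusted p = 0.00401) and Aldoc by 1.21 (SE 0.235, adjusted p = 0.00849, or 0.0519 without replicate 2 of LIF+PD), and Slc16a3 fell by 2.63 (SE 0.434, adjusted p = 0.00451). Over all 6 comparisons, 14 of the 35 genes (40.0%) never passed, against 43.8% of all genes tested.

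Isozyme composition was described as the share of 1 gene in the summed FPKM of its family, a measure that does not depend on the scaling of a culture. Slc2a3 made up 72.4% and 75.1% of glucose transporter FPKM (Slc2a1 and Slc2a3) in 2i+LIF, 77.4% and 76.1% in 2i, 57.3% and 57.0% in LIF+PD, and 67.0% and 66.9% in CH+LIF. The 4 media did not overlap. Slc16a3 made up 56.1% and 40.0% of the lactate transporter pair in 2i+LIF and 53.7% and 44.1% in 2i, against 74.0% and 66.3% in LIF+PD and 22.6% and 15.8% in CH+LIF. Its share was thus highest where CH was missing and lowest where PD was missing.

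Pdk1 made up 53.7% and 44.9% of the kinase FPKM in 2i+LIF, 76.5% and 77.9% in 2i, 33.0% and 26.0% in LIF+PD, and 89.5% and 88.7% in CH+LIF. Pdk2 held 10.005% and 14.1% in 2i+LIF and 16.9% and 29.8% in LIF+PD, against 2.17% to 2.95% in the 2 other media. Ldhb made up 37.3% and 50.9% of lactate dehydrogenase in 2i+LIF, 54.7% and 64.4% in 2i, 57.8% and 71.3% in LIF+PD, and 33.4% and 38.4% in CH+LIF. It was the larger part in all cultures of 2i and LIF+PD and the smaller part in both of CH+LIF. Aldoc was a small part of the aldolases throughout, at 2.88% and 3.35% in 2i+LIF, 4.70% and 3.79% in CH+LIF, and 1.40% to 1.52% in the 2 other media.

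These shares were tested for 1 gene in each of 8 families (Slc2a3, Hk2, Pfkp, Aldoc, Eno2, Ldhb, Slc16a3 and Pdk2) by a one-sided exact permutation test over all ways to divide 8 cultures into 4 pairs, for which the smallest possible p is 0.00952. The exact p was 0.00952 for Slc2a3, 0.019 for Pdk2, 0.0286 for Aldoc and 0.0286 for Slc16a3, and none passed after Benjamini-Hochberg adjustment over the 8 families (adjusted p = 0.0571 for each of the 4). For Hk2, Ldhb, Eno2 and Pfkp the exact p was 0.0571, 0.0762, 0.2 and 0.619. When the log2 ratio of the 2 most abundant genes of each family was used in place of the share, 5 families passed.

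**Figure D4:**
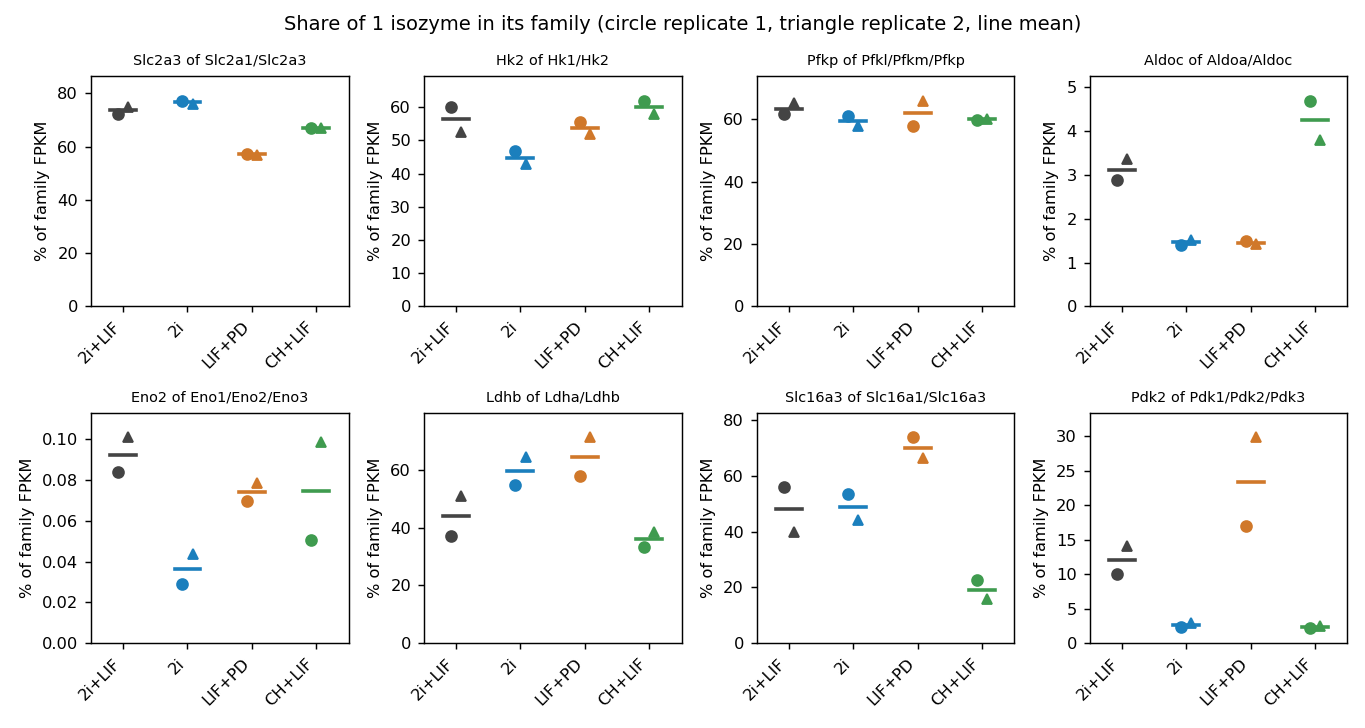
Share of 1 isozyme in the summed FPKM of its family, in percent, in each culture of the 4 media; circles are replicate 1, triangles replicate 2 and lines the mean of the 2, and each vertical axis starts at 0. The Slc2a3 share is lowest in LIF+PD and the Slc16a3 share in CH+LIF, while the Pfkp share lies between 57.7% and 66.0% in all media.

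The replicates of a medium were not equivalent for glycolysis. This pattern was noticed after the values had been seen and is given as a description. In 22 of the 35 genes replicate 1 was higher than replicate 2 in all 4 media, against 10.6% of all genes tested, and in 0 of the 35 was replicate 2 the higher in all 4, against 8.59%. The difference was largest for Slc16a3, with a mean log2 difference of FPKM + 1 between replicates 1 and 2 of 0.79, followed by Pfkl (0.66), Ldha (0.62), Pgk1 (0.57) and Tpi1 (0.52). Pfkl, for example, was at 94.9 and 58.4 FPKM in 2i+LIF, 91.1 and 62.1 in 2i, 82.7 and 40.6 in LIF+PD, and 62.3 and 47.6 in CH+LIF.

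By role, this order was seen in 4 of 4 transporters, 7 of 10 genes of upper glycolysis, 6 of 7 of lower glycolysis, 4 of 7 of pyruvate and lactate fate, and 1 of 7 pentose phosphate genes, Taldo1. Among genes with a mean of at least 100 FPKM, a limit also set after the values had been seen, 13 of 17 pathway genes showed the order, against 17.5% of all such genes. Since the sum of FPKM was itself higher in replicate 1 of each medium, the count was repeated after rescaling. It was 14 of 35 when each culture was brought to the same sum, against 3.52% of all genes, and 21 of 35 with size factors, against 9.95%. Outside the pathway, the order was seen in 6 of 14 targets of the hypoxia-inducible factor, among them Bnip3 and Mif, in 5 of 6 pluripotency markers, and in 3 of 30 other genes of glucose metabolism. Relative depth was lower in replicate 1 than in replicate 2 of every medium but LIF+PD, and its part in the order was not tested. Among the 21 genes with this order and a promoter window, 11 held ACGTG, 15 GCGTG and 3 CACGTG. Among the 13 others 4, 7 and 2 did. This split was made after the values had been seen, and the difference was not tested.

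The median SD between the replicates of a medium, on the log2 scale, was 0.14 to 0.16 for the 35 genes and 0.10 to 0.12 for all genes tested, depending on the medium. Ldha, Pgk1, Tpi1 and Aldoa had SEs of 0.24 to 0.34, against 0.0876 for Rpe and 0.0942 for Slc2a3. The difference of -0.83 for Tpi1 without CH was therefore of about the size of those that passed for Rpe and Slc2a3, and missed the threshold. It passed with the replicate number as a block (adjusted p = 0.0013).

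**Figure D5:**
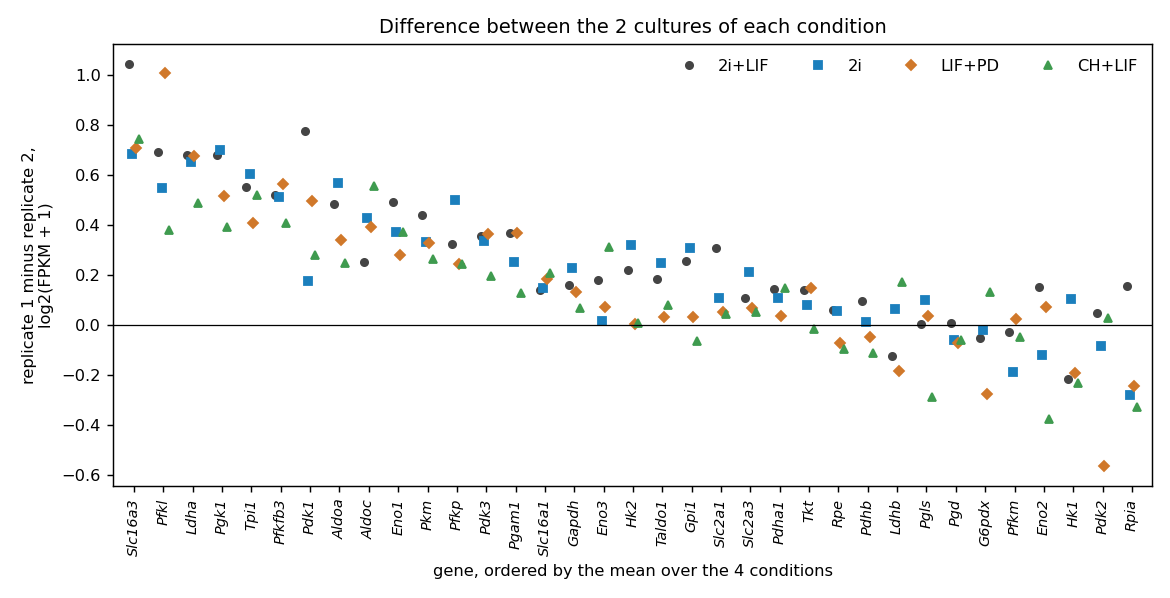
Log2(FPKM + 1) in replicate 1 minus replicate 2 for each of the 35 genes, with 1 point per medium and a line at 0 (no difference). In 22 genes all 4 points lie above 0, with Slc16a3 and Pfkl the farthest, and most pentose phosphate genes lie on both sides of the line.

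Further genes of glucose metabolism, their known regulators and targets of those regulators were read from the same fit. Of 30 other pathway genes tested, 5 passed without LIF (4 higher), 11 without CH (5 higher) and 7 without PD (3 higher), which is 16.7%, 36.7% and 23.3% of them beside 18.6%, 25.2% and 25.4% of all genes tested. Pgm2, by its identifier the gene now named Pgm1 (chromosome 4), which interconverts glucose 1-phosphate and glucose 6-phosphate, rose from 7.98 and 5.89 FPKM in 2i+LIF to 20.8 and 16.1 in 2i, by 1.29 (SE 0.181, adjusted p = 0.00388). Pdp2, a phosphatase that reverses the action of the kinases, fell from 10.2 and 10.1 FPKM to 5.01 and 4.33 without CH, by 0.98 (SE 0.129, adjusted p = 0.00225). Bsg (basigin), the chaperone that brings lactate transporters to the cell surface, fell from 441 and 378 FPKM to 257 and 257 without PD, by 0.67 (SE 0.0943, adjusted p = 0.00371). In each of these 3 genes the cultures of the 2 media did not overlap.

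Of 14 targets of the hypoxia-inducible factor outside the pathway, 2 passed without LIF (1 higher), 4 without CH (all higher) and 6 without PD (1 higher), which is 14.3%, 28.6% and 42.9% of them beside the same 18.6%, 25.2% and 25.4%. Their median log2 difference without PD was -0.49, against 0.01 over all genes tested. P4ha1, a collagen prolyl hydroxylase, fell from 23.0 and 17.5 FPKM in 2i+LIF to 6.16 and 5.21 in CH+LIF, by 1.66 (SE 0.207, adjusted p = 0.0024). Vegfa, the angiogenic growth factor, was at 20.5 and 20.3 FPKM in 2i+LIF, fell to 6.99 and 9.76 in 2i (log2 difference -1.21, SE 0.187, adjusted p = 0.00552) and rose to 29.3 and 37.8 in LIF+PD (0.68, SE 0.187, adjusted p = 0.0374). The call for Vegfa without CH was lost without any 1 culture of 2i+LIF or LIF+PD (adjusted p from 0.0501 to 0.177). Ddit4, an inhibitor of mTOR signalling, rose both without LIF and without CH, by 1.06 (SE 0.113, adjusted p = 0.0013) and 1.503 (SE 0.113, adjusted p = 0.000285).

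Of 16 transcription factors known to act on glycolytic genes, 7 passed in each of the 3 comparisons, with 3, 4 and 4 of them higher, which is 43.8% of the list beside 18.6%, 25.2% and 25.4% of all genes tested. Stat3, which LIF activates, fell from 55.9 and 49.6 FPKM to 9.69 and 17.1 without LIF, by 1.95 (SE 0.258, adjusted p = 0.0031). Myc, which activates many glycolytic genes, rose from 8.61 and 5.31 FPKM to 45.9 and 45.6 without PD, by 2.59 (SE 0.321, adjusted p = 0.00235). Epas1 (HIF2A) rose from 4.88 and 4.88 FPKM to 16.5 and 13.7 without CH, by 1.45 (SE 0.121, adjusted p = 0.00041). Of 8 NRF2 targets outside the pathway, 3, 2 and 3 passed, with 2, 1 and 2 of them higher. These counts are 37.5%, 25.0% and 37.5% of the list beside those shares. Txnrd1 rose by 0.49 without LIF (SE 0.0698, adjusted p = 0.0042) and by 0.62 without PD (SE 0.0698, adjusted p = 0.00163). The lower call in each of the 3 comparisons was Me1, the NADP-dependent malic enzyme. It was at 27.7 and 27.1 FPKM in 2i+LIF against 11.1 to 13.7 in the 6 other cultures.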

How the data were processed

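RNA of 8 cultures, 2 in each of 4 media, was sequenced from a single end. The authors aligned reads with TopHat2 to mm10 with Ensembl 75 annotation, kept uniquely mapped reads and deposited an FPKM value for every gene in each culture, flanked by lower and upper bounds. Cufflinks and Cuffdiff are listed in the submitters' processing notes without versions. The methods describe rRNA-depleted RNA and the labels polyA RNA. The methods state that only uniquely mapped reads were used further, but they do not describe the FPKM. Whether reads that match several near-identical genes were left out of the FPKM or shared out is not known here. Reads per gene, which the authors tested with DESeq2, were not used here.

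Repeated entries of an identifier were summed, which left 38991 genes. Starts in the files count from 0, and 1 was added: 77.7% then matched GENCODE M21, against 1.09% as deposited. Groups were taken from the labels. log2(FPKM + 1) of the 12927 genes with at least 1 FPKM in at least 2 cultures was fitted with limma 3.58.1 (R 4.3.3) with a mean-variance trend, all 8 cultures in 1 fit (4 residual degrees of freedom), with Benjamini-Hochberg adjustment per comparison. FPKM were not rescaled between cultures. An exact permutation test of 2 cultures against 2 cannot reach 0.05. Family shares were tested by exact permutation in Python 3.11.15. Near-identical stretches were found with BLAST 2.17.0 at a minimum of 95% identity over 100 bases. Promoter sequences are from RefSeq (GRCm38.p6). The fit and the permutation test were tested on simulated data.

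Alternatives were pseudocounts of 0.1 and 5, no filter, a filter at 5 FPKM, rescaling to the same sum (TPM) or by size factors, no trend, only the 2 media compared, the replicate number as a block, and each culture left out. The midpoint of the deposited bounds and the block with size factors were added after the values had been seen. All 35 genes were to be named, and of the other lists at most 3 genes per comparison with 2i+LIF, those with the largest change among those that passed without overlap of the cultures. The genes and lists were chosen with earlier results of these data known. Same-numbered replicates were checked for pairing. Their deviations from the means of their media correlated by -0.03 to 0.09 over all genes. The numbers were therefore not used as pairs in the main fit. Among the 35 genes the deviations correlated by 0.71 to 0.85, and the main fit leaves this shared difference in their SEs. A gene of the 35 that did not pass there is thus not shown to be unchanged.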

Additional observations from a re-analysis of the deposited data

How the results depend on the processing

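Over the 6 comparisons and 19 alternatives, 3708 results of single genes of the pathway kept their side of the threshold, 142 called ones lost it, 134 gained it and 0 called ones changed direction. Without a filter on low values, 5 of the 35 genes passed in each comparison with 2i+LIF, where 8 had passed. With the replicate number as a block, 13, 14 and 15 passed without LIF, CH and PD, and 23 and 20 for LIF+PD and CH+LIF against 2i. Under the block, Pgk1, Tpi1 and Ldha passed without CH (adjusted p = 0.0051, 0.0013 and 0.00135) and without PD (0.0106, 0.00468 and 0.0345), Gapdh passed without PD (0.0405), Eno1 and Ldha without LIF (0.0272 and 0.0327), and Pkm against 2i in LIF+PD and CH+LIF (0.0175 and 0.022). Eno3, Pdk3 and Pgd also passed under the block without LIF, Slc16a3, Pfkp and Pdk1 without CH, and Hk2, Pfkp and Aldoa without PD. With the block and size factors together the counts were 13, 14, 16, 23 and 21, in the same order. The numbers do not mark paired cultures over all genes, although among the 35 genes the deviations of same-numbered replicates correlated by 0.71 to 0.85. Leaving out each culture gave 4 to 8 calls without LIF, 3 to 7 without CH, 5 to 10 without PD, 9 to 12 for LIF+PD against 2i, 6 to 12 for CH+LIF against 2i and 8 to 13 for CH+LIF against LIF+PD. Of the isozyme families, 0 of 8 passed (exact permutation test, adjusted), 4 had an unadjusted p below 0.05, and 5 passed with the log2 ratio of the 2 highest genes. With the block or without any 1 culture 0 passed, and the means of the media without each culture were not run. The block test of the shares has 24 arrangements and a smallest possible p of 0.0417. After adjustment over the 8 families its count of 0 was therefore nearly fixed beforehand. Rescaling to the same sum moved the median of all genes by 0.12 without CH, 0.17 without PD and 0.12 for CH+LIF against 2i. The midpoint of the bounds gave 9, 8 and 8 calls against 2i+LIF. Except where a smaller sample or a larger set of tests is part of the alternative itself, the cause of these changes was not tested. With 2 cultures per medium, a difference that did not pass may still exist, most of all where replicates lay far apart.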
